A study of Mus musculus with 15 samples.

Results

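The comparison described here is that of mouse embryonic stem (ES) cells kept in CHIR99021 and PD0325901 (the 2i group) with cells kept in CHIR99021 alone (the CHIR group). The arrays were chosen by their titles, which gave 3 in each group, 6 of the 15 in the series, and all 19937 genes measured on them were described. All cells were of 1 line, adapted to culture in both inhibitors and LIF, with a Biotin-3xFLAG tag knocked into Ctnnb1 and the biotin ligase BirA. Every group, controls included, therefore carried the tagged beta-catenin gene. In the 2i group CHIR99021 stayed at 3 µM and PD0325901 at 1 µM while LIF was withdrawn for 24 h. In the CHIR group CHIR99021 stayed at 3 µM while both PD0325901 and LIF were withdrawn for 24 h. The difference between them is thus that between keeping and losing PD0325901 for 24 h, with CHIR99021 present and LIF absent on both sides. For comparison, the PD03 group kept 1 µM PD0325901 alone, the DMSO group kept none of the 3 factors, and the 2iLIF group stayed in long-term culture with all of them, 3 arrays each. Total RNA was read on single-colour Affymetrix whole-transcript arrays, and all levels below are log2 signals after RMA, the authors' summary of the probes of a gene.

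PD0325901 inhibits MEK, the kinase that phosphorylates and activates ERK. In ES cells ERK is driven largely by FGF4 that the cells make themselves, and its activity favours the exit from the naive state towards formative and primed epiblast. Active ERK also induces its own brakes, among them the Dusp phosphatases and the Sprouty and Spred proteins, together with ETS factors of the PEA3 class. CHIR99021 inhibits GSK3, which marks beta-catenin for degradation; beta-catenin that escapes it can act with the TCF and LEF factors on their target genes. No protein was measured here.

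The genes highest above the CHIR group were Lefty1 and Lefty2, secreted antagonists of Nodal, which were 4.33-fold and 3.85-fold higher with PD0325901. The genes farthest below it were Itga1, an integrin alpha chain that binds collagen, and Etv4, a PEA3-class ETS factor, which were 3.66-fold and 3.46-fold lower. In the fit of limma over all 15 arrays, 1887 of the 19937 genes (9.46%) passed an adjusted p of 0.05, 1137 of them higher (5.7%) and 750 lower (3.76%) in 2i. Most of these differences were small: the median size was 0.239 on the log2 scale, 219 genes reached 0.5, and 30 genes (0.15%) reached 2-fold, 10 higher (0.0502%) and 20 lower (0.1%). The majority of higher calls depends on the scaling of the arrays: with each array centred on its median, 1648 genes passed, 716 higher and 932 lower, or 43.4% higher in place of 60.3%. That centring moved the median difference of all genes from 0.021 to -0.013, so differences near those sizes carry no firm direction. On 3220 genes (16.2%) every 2i array was above every CHIR array, and on 2133 (10.7%) every one was below. No label states that replicates were grown as separate cultures, so the p-values speak of the spread between these arrays alone, and it may be technical.

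**Figure D1:**
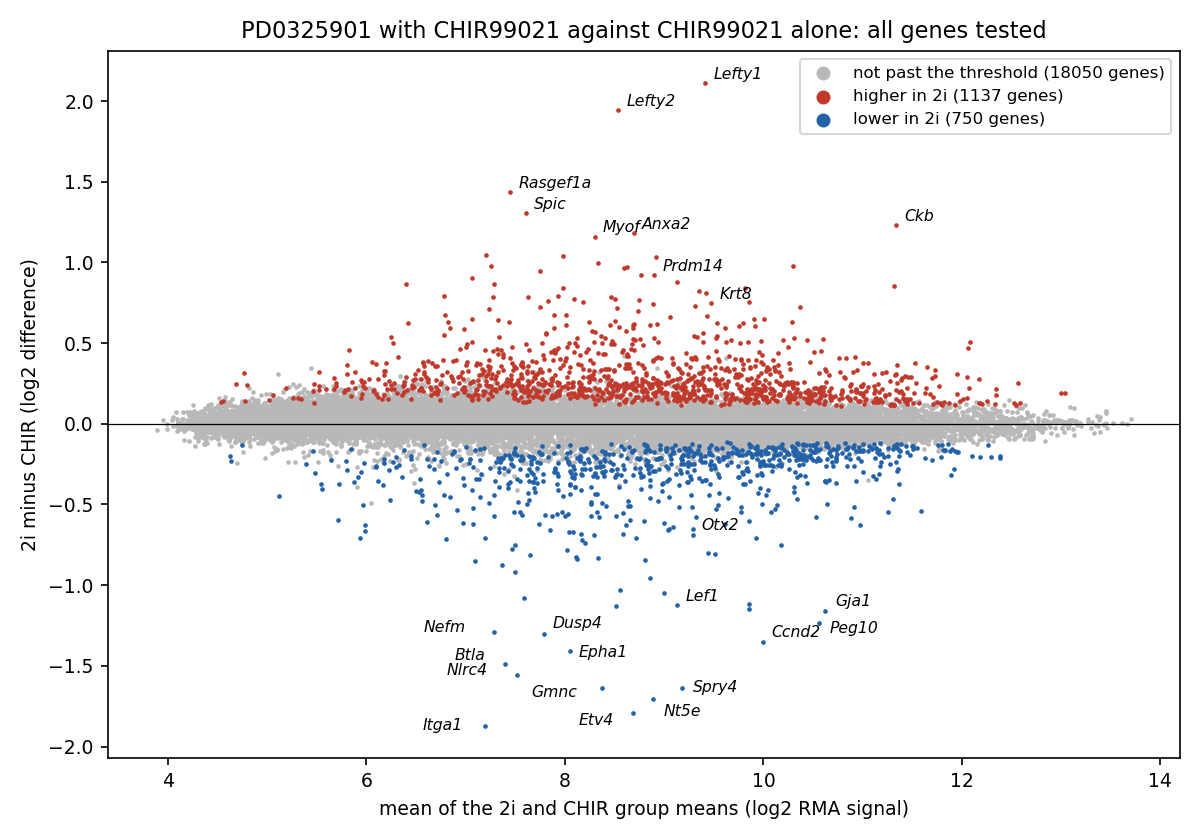
Log2 difference between the 2i and CHIR means (vertical axis) against the mean of both (horizontal axis, log2 RMA signal) for the 19937 genes, 3 arrays per group; red genes were higher and blue genes lower in 2i at an adjusted p of 0.05. Lefty1 and Lefty2 stand highest at 2.11 and 1.95, Itga1 and Etv4 lowest at -1.87 and -1.79, and most called genes lie within 0.5 of 0.

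Genes of ES cells were well measured: the lowest of 7 ES cell markers (Pou5f1, Sox2, Nanog, Zfp42, Sall4, Tdgf1 and Dppa5a) had a mean of 10.36 and the highest 13.1. Of these 7, 2 passed, both higher in 2i, against 5.7% of all genes called higher. As a guide to background, 1027 olfactory receptor genes, which these cells are not known to use, had a median level of 4.9 and a 95th percentile of 6.25, and 9 of them (0.876%) passed the test. Levels of different probe sets are not on one scale, so a signal near that range may or may not be background. None of the 10 fibroblast and feeder markers, 6 trophoblast markers, 3 measured neural markers and 4 measured mesoderm markers passed, and of 6 primitive endoderm markers Gata4 alone did. The mean over the fibroblast markers lay between 6.46 and 6.64 on the 2i arrays and between 6.51 and 6.54 on the CHIR arrays. No array stood apart: the root mean square deviation from the group mean lay between 0.0473 and 0.0736 on all 15.

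Of 15 measured genes for proteins that carry the signal from FGF receptors through MEK and ERK, 1 passed (6.67%, against 9.46% of all genes). It was Braf, a kinase that activates MEK. Braf read 10.52, 10.46 and 10.37 in 2i and 10.6, 10.64 and 10.58 in CHIR, a difference of -0.16 ± 0.04 (SE; limma, adjusted p = 0.0143). Its arrays did not overlap, but the call was lost under some of the other settings tried. The receptor gene Fgfr1 had means of 10.29 and 10.4 (adjusted p = 0.105), and Map2k1 and Map2k2, which encode the MEK kinases that PD0325901 inhibits, differed by 0.02 and 0.07 (adjusted p = 0.813 and 0.465). The interval of Fgfr1 ran from -0.19 to -0.02 before adjustment.

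Of 11 FGF ligands 1 passed (9.09%, near the 9.46% of all genes). It was Fgf4, the main ERK-activating ligand of ES cells, and it was higher in 2i. Fgf4 read 11.45, 11.48 and 11.49 in 2i and 11.19, 11.16 and 11.18 in CHIR, 1.23-fold higher (log2 0.3 ± 0.04, adjusted p = 6.43e-05). Fgf5, a ligand that marks the formative epiblast, read 7.48, 7.2 and 7.24 in 2i and 7.84, 7.57 and 7.74 in CHIR. Every 2i array lay below every CHIR array, yet the difference of -0.41 had a 95% interval of -0.7 to -0.12 and an adjusted p of 0.0796.

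Among the phosphatases that switch off ERK and related kinases, 3 of 11 measured Dusp genes fell (27.3%, against 3.76% of all genes). None rose, and the median was -0.072 over the list against 0.021 over all genes. Dusp4, a nuclear phosphatase of ERK, read 7.21, 7.12 and 7.09 in 2i and 8.49, 8.51 and 8.32 in CHIR, 2.47-fold lower (log2 -1.3 ± 0.06, adjusted p = 2.38e-09). Dusp6, the cytoplasmic ERK phosphatase, read 9.23, 9.33 and 9.32 in 2i and 10.41, 10.38 and 10.45 in CHIR, 2.17-fold lower (log2 -1.12 ± 0.06, adjusted p = 6.4e-09). In both genes the 2i arrays all lay more than 1 log2 unit below the CHIR arrays. Dusp5, another nuclear ERK phosphatase, fell by 0.16 (adjusted p = 0.0159), and the other 8 members differed by -0.09 to 0.06. Dusp9, an ERK phosphatase prominent in ES cells, had means of 9.19 and 9.26 (adjusted p = 0.452).

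The Sprouty and Spred inhibitors, which act between receptor and RAF, gave the largest share of lower genes of any ERK list. Of 9, 5 fell (55.6%, against 3.76% of all genes), none rose, and the median was -0.176. Spry4 read 8.16, 8.31 and 8.61 in 2i and 10.07, 9.9 and 10.02 in CHIR, 3.11-fold lower (log2 -1.64 ± 0.09, adjusted p = 1.4e-08). Spry2 read 8.97, 8.94 and 9.18 in 2i and 9.59, 9.45 and 9.59 in CHIR, 1.43-fold lower (adjusted p = 2.31e-05). Spred1 read 9.84, 9.84 and 9.73 in 2i and 10.34, 10.36 and 10.35 in CHIR, 1.46-fold lower (adjusted p = 2.82e-06). In each of the 3 genes all 2i arrays lay below all CHIR arrays. Spred3 and Spry1 fell by 0.26 and 0.18 (adjusted p = 0.0399 and 0.0383), both close to the threshold and lost under some settings. Spred2, Il17rd and Errfi1, an inhibitor of the EGF receptor, differed by -0.08, -0.03 and -0.07 and did not pass.

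Of 9 ETS factors, 2 of the PEA3 class fell (22.2%, against 3.76% of all genes). Etv4 read 7.69, 7.72 and 7.97 in 2i and 9.69, 9.45 and 9.62 in CHIR (log2 -1.79 ± 0.08, adjusted p = 1.81e-09). Etv1 read 9.79, 9.85 and 9.75 in 2i and 10.57, 10.51 and 10.57 in CHIR, 1.69-fold lower (log2 -0.75 ± 0.04, adjusted p = 1.19e-08), and its second probe set differed by -0.87. Etv5, the third PEA3 factor, had 2 probe sets that disagreed. The set with the higher signal, which stands for the gene here, read 11.99, 11.96 and 11.98 in 2i and 11.91, 11.93 and 11.88 in CHIR (log2 0.07 ± 0.03, adjusted p = 0.262). The other set read 9.99, 10.02 and 10.21 in 2i and 10.89, 10.74 and 10.78 in CHIR (log2 -0.73 ± 0.06, adjusted p = 9.9e-06 over all probe sets), so no direction is given for Etv5. The TCF-class factors Elk1, Elk3 and Elk4, which act with SRF at immediate early genes, differed by 0.11, 0.02 and 0 and did not pass.

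**Figure D2:**
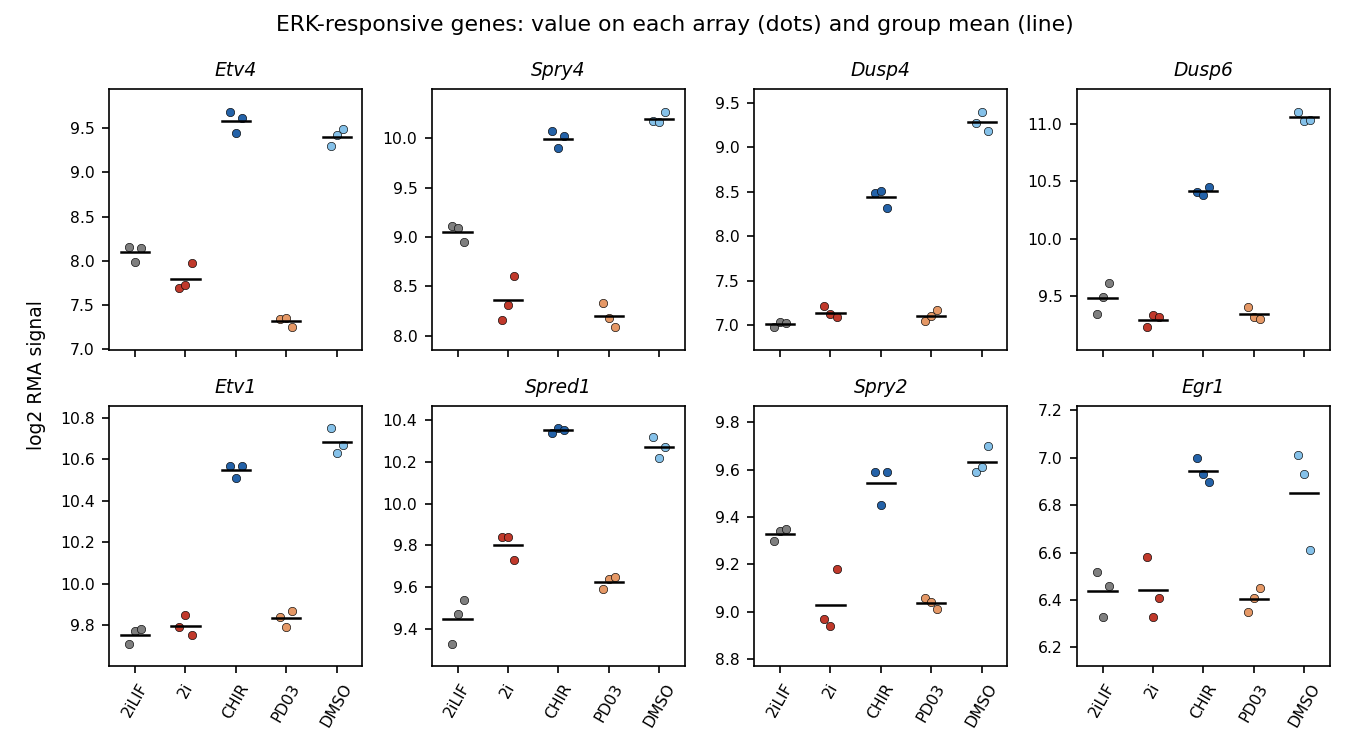
Log2 RMA signal of 8 ERK-responsive genes on each of the 15 arrays (dots; 3 per group) with the group mean (line); each panel has its own vertical scale, which does not start at 0. Of the 8, Etv4 differs most between 2i and CHIR (-1.79), and no 2i array reaches a CHIR array in any panel. All 8 are called genes that fell, so this separation follows from the choice. Genes of the same lists that did not pass, such as Fos and Jun, are not shown.

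The immediate early genes, which ERK and SRF induce within minutes of a stimulus, moved in both directions and mostly by little. Of 20, 2 rose (10%, against 5.7% of all genes) and 3 fell (15%, against 3.76%), and the median was 0.006. Egr1, a zinc finger factor, read 6.58, 6.33 and 6.41 in 2i and 7, 6.93 and 6.9 in CHIR, 1.42-fold lower (adjusted p = 0.00132). Myc, a growth regulator that is also a target of beta-catenin, read 8.53, 8.66 and 8.94 in 2i and 9.56, 9.12 and 9.42 in CHIR, 1.58-fold lower (adjusted p = 0.00315). The Myc arrays spread widely, with SDs of 0.209 and 0.227 (n = 3 each), and did not overlap. Srf fell by 0.21 (adjusted p = 0.00177), while Klf6 and Klf10, a pair of Krüppel-like factors, rose by 0.42 and 0.15 (adjusted p = 3.3e-05 and 0.0241). Fos and Fosb, members of the AP-1 family, had means of 6.24 and 6.4 in 2i and 6.24 and 6.39 in CHIR, near the 95th percentile of the olfactory receptor genes. Jun differed by -0.05 and Junb by 0.08, and neither passed.

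Of 13 measured growth and cell cycle genes known to respond to ERK, 3 rose (23.1%, against 5.7% of all genes) and 2 fell (15.4%, against 3.76%). Ccnd2, which encodes cyclin D2, read 9.12, 9.23 and 9.61 in 2i and 10.79, 10.51 and 10.71 in CHIR, 2.55-fold lower (log2 -1.35 ± 0.11, adjusted p = 5.57e-07). The other D cyclins did not follow it: Ccnd1 differed by -0.06, with a 95% interval of -0.18 to 0.07 (adjusted p = 0.627), and Ccnd3 by 0.06 (adjusted p = 0.403). Bcl2l11, whose product BIM promotes apoptosis and is degraded after phosphorylation by ERK, read 7.98, 8.02 and 7.88 in 2i and 8.34, 8.44 and 8.33 in CHIR, 1.33-fold lower (adjusted p = 0.000232). Epha4, an ephrin receptor, rose by 0.24 (adjusted p = 0.000271), and Lif and Plaur rose by 0.27 and 0.22 (adjusted p = 0.0152 and 0.0284). None of 14 genes of G2 and M phase passed. Of 15 genes of S phase 13.3% passed, against 9.46% of all genes: the E cyclins Ccne1 and Ccne2 fell, by 0.16 and 0.24 (adjusted p = 0.0178 and 0.0344).

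The naive pluripotency genes were the list with the largest share of higher calls. Of 19 measured, 11 rose (57.9%, against 5.7% of all genes), 1 fell and 7 did not pass, with a median of 0.244. Prdm14, a repressor of FGF signalling and of DNA methyltransferase genes, read 9.24, 9.39 and 9.45 in 2i and 8.36, 8.43 and 8.51 in CHIR, 1.9-fold higher (log2 0.92 ± 0.05, adjusted p = 1.18e-08). Tcl1, a coactivator of AKT, read 10.73, 10.72 and 10.74 in 2i and 9.84, 10.05 and 10.15 in CHIR, 1.65-fold higher (adjusted p = 5.01e-06). Tbx3, a T-box factor of the naive network, read 9.64, 9.72 and 9.67 in 2i and 9.06, 9.17 and 9.1 in CHIR, 1.48-fold higher (adjusted p = 0.000103). In all of these the lowest 2i array was above the highest CHIR array.

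The central naive factors moved less. Klf2 read 10.02, 10.01 and 10.08 in 2i and 9.7, 9.67 and 9.7 in CHIR, 1.27-fold higher (adjusted p = 1.24e-05). Tfcp2l1 read 11.36, 11.32 and 11.37 in 2i and 11.03, 11.06 and 11.02 in CHIR, 1.24-fold higher (adjusted p = 0.00106). Nanog read 12.66, 12.69 and 12.72 in 2i and 12.43, 12.44 and 12.45 in CHIR, 1.19-fold higher (adjusted p = 0.00168). The arrays of each of these genes were tight, with SDs of at most 0.04 (n = 3), and did not overlap between the groups. Klf4, which is induced by LIF through STAT3, read 8.42, 8.47 and 8.51 in 2i and 8.39, 8.33 and 8.24 in CHIR, a difference of 0.15 with a 95% interval of -0.05 to 0.34 (adjusted p = 0.386). Klf5, Nr0b1, Nr5a2 and Dppa3 differed by 0.02, -0.04, 0.01 and -0.01. The 1 naive gene that fell was Gbx2, a homeobox gene, which read 8.11, 8.12 and 8.14 in 2i and 8.63, 8.54 and 8.68 in CHIR, 1.4-fold lower (adjusted p = 0.000142).

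Pluripotency genes shared by naive and primed cells took the opposite direction where they moved. Of 13 measured, 6 fell (46.2%, against 3.76% of all genes), 1 rose (7.69%, against 5.7%) and 6 did not pass, with a median of -0.114. Pou5f1 and Sox2, the central factors of pluripotency at every stage, both differed by 0.01, with 95% intervals of -0.06 to 0.09 and -0.09 to 0.1, and their arrays overlapped. Lin28a, an RNA-binding protein that blocks let-7 maturation, read 9.77, 9.76 and 10.02 in 2i and 10.46, 10.28 and 10.4 in CHIR, 1.45-fold lower (adjusted p = 4.14e-05). Its paralogue Lin28b fell by 0.33 (adjusted p = 0.014), and Utf1, a chromatin protein, fell by 0.28 (adjusted p = 0.000477). Dppa2, Dppa4 and L1td1 fell by 0.2, 0.21 and 0.23 (adjusted p = 0.00363, 0.0308 and 0.00369). Fbxo15, an F-box protein, was the 1 that rose: 11.53, 11.53 and 11.52 in 2i against 11.04, 11.25 and 11.19 in CHIR (log2 0.36, adjusted p = 0.000245).

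Genes of the formative and primed epiblast fell or did not pass: 9 of 21 fell (42.9%, against 3.76% of all genes), none rose, and the median was -0.139. Otx2, a homeobox factor of the early formative state, read 8.84, 9.04 and 8.97 in 2i and 9.69, 9.55 and 9.68 in CHIR, 1.61-fold lower (log2 -0.69 ± 0.06, adjusted p = 3.8e-06). Pim2, a serine/threonine kinase that supports growth, read 9.29, 9.21 and 9.33 in 2i and 10.68, 10.18 and 10.41 in CHIR, 2.21-fold lower (log2 -1.15 ± 0.13, adjusted p = 2.36e-05). Wnt8a, a Wnt ligand, read 6.83, 6.87 and 6.83 in 2i and 7.5, 7.52 and 7.63 in CHIR, 1.63-fold lower (adjusted p = 7.76e-08). All 3 genes had no overlap between the groups. Grhl2, a factor that opens epithelial enhancers in formative cells, fell by 0.57 (adjusted p = 0.000387), and Podxl and Cdh2, both cell surface proteins, fell by 0.36 and 0.21 (adjusted p = 0.00254 and 0.00355). Other genes used to define the same state did not pass, among them Pou3f1 at -0.12, Sox3 at 0, Zic2 at -0.04 and Sall2 at -0.05. The CHIR level of Otx2 was itself far below that of cells without CHIR99021: its group means were 7.98 in 2iLIF, 8.95 in 2i, 9.64 in CHIR, 11 in PD03 and 11.58 in DMSO.

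The genes of the de novo DNA methyltransferases fell together, and those that maintain or remove methylation did not pass. Dnmt3a read 9.74, 9.69 and 9.79 in 2i and 10.28, 10.17 and 10.26 in CHIR, 1.41-fold lower (adjusted p = 3.36e-06). Dnmt3b read 10.57, 10.48 and 10.71 in 2i and 11.2, 11.11 and 11.2 in CHIR, 1.5-fold lower (adjusted p = 7.12e-06). Dnmt3l, their catalytically inactive partner, read 10.88, 10.93 and 11.15 in 2i and 11.54, 11.48 and 11.58 in CHIR, 1.46-fold lower (adjusted p = 1.22e-05). The lowest means of all 3 genes were those of the 2iLIF group, at 8.55, 9.51 and 9.71. Dnmt1 and Uhrf1, which copy methylation at replication, differed by 0.04 and 0.08, and Tet1, Tet2 and Tet3, which oxidise methylcytosine, by -0.06, 0.07 and 0.04 (adjusted p of at least 0.219 for these 5).

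Of 15 germ line genes 4 fell (26.7%, against 3.76% of all genes) and none rose. Mael, a protein of the piRNA pathway, read 6.9, 6.99 and 6.86 in 2i and 7.34, 7.33 and 7.45 in CHIR, 1.37-fold lower (adjusted p = 0.00953). Piwil2, another piRNA factor, read 7.43, 7.59 and 7.58 in 2i and 7.86, 7.82 and 7.93 in CHIR, 1.26-fold lower (adjusted p = 0.00021). Stk31 and the RNA helicase gene Ddx4 fell by 0.36 and 0.32 (adjusted p = 0.0101 and 0.0213), both lost under some settings, and Dazl differed by -0.03 (adjusted p = 0.872).

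CHIR99021 was present in both groups. Of 18 measured genes that beta-catenin is known to induce, 4 fell (22.2%, against 3.76% of all genes), 1 rose and 13 did not pass. Axin2, the usual reporter gene of the pathway, read 9.18, 9.24 and 9.14 in 2i and 9.3, 9.37 and 9.25 in CHIR, a difference of -0.12 with a 95% interval of -0.28 to 0.05 (adjusted p = 0.42). Both groups were well above the PD03 and DMSO means of 7.66 and 7.86. Ctnnb1, the tagged beta-catenin gene, read 11.95, 11.91 and 11.89 in 2i and 11.9, 11.93 and 11.91 in CHIR, with an interval of -0.07 to 0.07. Lef1, which encodes a DNA-binding partner of beta-catenin and is also listed among the formative genes, was the member that moved most. Lef1 read 8.54, 8.61 and 8.56 in 2i and 9.77, 9.66 and 9.65 in CHIR, 2.18-fold lower (log2 -1.12 ± 0.05, adjusted p = 3.8e-09). Where Axin2 was higher with CHIR99021, Lef1 was lower: its means were 9.69 in CHIR against 10.19 in DMSO, and 8.57 in 2i against 9.49 in PD03. Tnfrsf19, a receptor of the TNF family, fell by 0.46 (adjusted p = 4.29e-06), and Sp5, a transcriptional repressor, fell by 0.29 (adjusted p = 0.0156). Notum, a secreted enzyme that inactivates Wnt proteins, was the 1 that rose: 8.78, 8.82 and 8.92 in 2i against 8.28, 8.17 and 8.26 in CHIR (log2 0.6, adjusted p = 5.68e-06).

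Nodal, a TGF-beta family ligand that ES cells secrete, its antagonists and 1 of its receptors were higher with PD0325901. Of 11 genes of the pathway, 4 rose (36.4%, against 5.7% of all genes) and 1 fell (9.09%, against 3.76%). Lefty1 read 10.4, 10.48 and 10.54 in 2i and 8.3, 8.35 and 8.43 in CHIR (log2 2.11 ± 0.13, adjusted p = 4.6e-08). Lefty2 read 9.36, 9.51 and 9.64 in 2i and 7.57, 7.48 and 7.63 in CHIR (log2 1.95 ± 0.07, adjusted p = 1.2e-10). Both are feedback antagonists that Nodal signalling itself induces, and they are close paralogues, so that probes of one may also capture the other. Nodal read 10.35, 10.25 and 10.35 in 2i and 9.98, 9.99 and 10.02 in CHIR, 1.25-fold higher (adjusted p = 8.95e-05), far less than the Lefty genes. The receptor gene Acvr1b rose by 0.21 (adjusted p = 0.00331) and Acvr2b fell by 0.15 (adjusted p = 0.0439). Tdgf1, the co-receptor, Smad7, an inhibitor that the pathway induces, and Skil, a repressor of SMADs, differed by -0.02, 0.07 and -0.13 and did not pass.

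Genes of BMP signalling were divided: of 12, 2 rose (16.7%, against 5.7% of all genes) and 3 fell (25%, against 3.76%). Id3, an inhibitor of differentiation factors that BMP induces, read 7.73, 7.74 and 7.98 in 2i and 8.33, 8.51 and 8.66 in CHIR, 1.61-fold lower (adjusted p = 0.000387). Its relative Id4 went the other way, with 8.03, 8.19 and 8.05 in 2i and 7.4, 7.67 and 7.53 in CHIR, 1.47-fold higher (adjusted p = 0.000296). Among the ligands, Bmp4 fell by 0.35 (adjusted p = 0.0107) and Bmp7 rose by 0.43 (adjusted p = 0.000499). Id1 fell by 0.21 (adjusted p = 0.0451), and Id2 had a difference of 0.25 (adjusted p = 0.154).

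Adhesion genes held some of the largest differences in both directions. Itga1 read 6.28, 6.24 and 6.28 in 2i and 8.26, 7.96 and 8.18 in CHIR (log2 -1.87 ± 0.1, adjusted p = 6.4e-09). Its 2i values lay at the upper end of the olfactory receptor range, where RMA compresses folds, and the DMSO group, at 6.54, was also far below CHIR. Of 18 integrin and laminin genes, 5 rose (27.8%, against 5.7% of all genes) and 3 fell (16.7%, against 3.76%). Apart from Itga1 none of these moved by more than 0.38. Lama1, a laminin chain of basement membranes, rose by 0.38 (adjusted p = 5.23e-05), while Lamb1 and Lama5 fell by 0.23 and 0.2 (adjusted p = 0.00799 and 0.0428).

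Genes of epithelial junctions went in both directions. The desmosome gene Dsp read 7.73, 7.74 and 7.73 in 2i and 6.65, 6.92 and 6.71 in CHIR, 1.97-fold higher (log2 0.98 ± 0.09, adjusted p = 2.53e-06). Jup, plakoglobin of desmosomes and adherens junctions, read 10.86, 10.85 and 10.89 in 2i and 10.37, 10.34 and 10.31 in CHIR, 1.44-fold higher (adjusted p = 6.82e-07). Gja1, the gap junction protein connexin 43, read 10, 10.04 and 10.09 in 2i and 11.19, 11.18 and 11.24 in CHIR, 2.23-fold lower (log2 -1.16 ± 0.07, adjusted p = 3.15e-08). The tight junction gene Cldn4 rose by 0.41 and the epithelial splicing factor Esrp1 fell by 0.44 (adjusted p = 9.97e-06 and 2.22e-06). Cdh1, which encodes E-cadherin, differed by 0.1 (adjusted p = 0.073). In all, 3 of 13 junction genes rose (23.1%, against 5.7% of all genes) and 4 fell (30.8%, against 3.76%). Of 11 mesenchymal genes, 3 fell (27.3%) and 1 rose (9.09%), none by more than 0.21, and Vim, Fn1 and Snai1 did not pass.

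Further genes of the 15 highest follow. Anxa2, a membrane-binding annexin, read 9.24, 9.39 and 9.23 in 2i and 7.86, 8.34 and 8.1 in CHIR, 2.27-fold higher (adjusted p = 9.68e-06). Myof, a ferlin of membrane repair, read 8.88, 8.89 and 8.88 in 2i and 7.57, 7.84 and 7.75 in CHIR, 2.23-fold higher (adjusted p = 6.44e-08). Jam2, an adhesion molecule of junctions, read 10.78, 10.77 and 10.81 in 2i and 9.79, 9.87 and 9.78 in CHIR, 1.97-fold higher (adjusted p = 7.88e-09). Ncam1, the neural cell adhesion molecule, was 1.96-fold higher and Mme, a membrane metalloprotease also known as neprilysin, 1.95-fold higher (adjusted p = 1.81e-09 and 2.29e-05).

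Rasgef1a, a guanine nucleotide exchange factor, read 8.18, 8.2 and 8.12 in 2i and 6.68, 6.73 and 6.78 in CHIR, 2.7-fold higher (log2 1.44 ± 0.04, adjusted p = 4.98e-11). Mras, a RAS-related GTPase, read 8.73, 8.8 and 8.96 in 2i and 7.84, 7.85 and 7.8 in CHIR (log2 1 ± 0.05, adjusted p = 7.88e-09), and its second probe set differed by 0.51 (adjusted p = 0.00241 over all probe sets). Spic, an ETS-family factor outside the PEA3 class, read 8.32, 8.38 and 8.07 in 2i and 6.76, 7.17 and 6.91 in CHIR, 2.47-fold higher (adjusted p = 3.74e-07). Ckb, brain-type creatine kinase, read 11.89, 11.92 and 12.04 in 2i and 10.77, 10.71 and 10.68 in CHIR, 2.35-fold higher (adjusted p = 9.8e-11). Every array of the 2i group was above every array of the CHIR group for these genes, which the rule for naming them required. Calcoco2, an autophagy receptor, was 2.06-fold higher by the set used here and differed by 1.85 on the log2 scale in its second set. Slco4c1, an organic anion transporter, was 2.07-fold higher (adjusted p = 4.21e-05), and Apobec2, a relative of cytidine deaminases, 2.05-fold higher (adjusted p = 1.77e-06).

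Among the 15 lowest, a set of genes was highest in the CHIR group of all 5. Nt5e, the ectonucleotidase CD73 that makes adenosine, read 7.92, 8.02 and 8.17 in 2i and 9.78, 9.7 and 9.75 in CHIR, 3.26-fold lower (adjusted p = 2.11e-09). Gmnc, a regulator of multiciliated cells, read 7.51, 7.6 and 7.54 in 2i and 9.19, 9.16 and 9.22 in CHIR, 3.12-fold lower (adjusted p = 2.38e-09). Btla, an inhibitory receptor of lymphocytes, read 6.77, 6.6 and 6.56 in 2i and 8.13, 8.11 and 8.17 in CHIR, 2.81-fold lower (adjusted p = 6.72e-09). Nefm, a neurofilament chain, followed with 6.65, 6.65 and 6.62 in 2i and 7.99, 7.94 and 7.87 in CHIR, 2.45-fold lower (adjusted p = 1.18e-08). The DMSO means of these genes were 6.86, 5.44, 5.7 and 5.91, all below their 2i means. Epha1, an ephrin receptor, and Nlrc4, an inflammasome protein, were 2.65-fold and 2.95-fold lower (adjusted p = 1.1e-08 and 1.44e-07), also with their highest mean in CHIR.

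Peg10 and Cntfr also had their highest mean in CHIR, with the DMSO mean above that of 2i, while Gja1 and Pim2 were highest in DMSO. Peg10, an imprinted gene derived from a retrotransposon, read 9.9, 9.91 and 10.03 in 2i and 11.34, 11.08 and 11.13 in CHIR, 2.35-fold lower (adjusted p = 2.56e-08), with means of 11.18 in CHIR and 11 in DMSO. Cntfr, a receptor chain for ciliary neurotrophic factor, was 2.19-fold lower (adjusted p = 1.03e-07), with a DMSO mean of 8.76 and a CHIR mean of 9.07. The DMSO means of Gja1 and Pim2 were 11.53 and 11.14, above their CHIR means of 11.2 and 10.42.

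Of the lists of other lineages, 23.5% of the endoderm, 25% of the neural and 18.2% of the trophoblast genes passed, against 9.46% of all genes. None of 13 primitive streak and mesoderm genes and none of 13 fibroblast genes passed. Of 17 genes of primitive and visceral endoderm, Lama1, Sparc and Gata4 rose and Lamb1 fell; Sparc, a matrix protein that ES cells also make, rose by 0.37 (adjusted p = 7.4e-06) and Gata4, the lineage factor, by 0.23 (adjusted p = 0.0239), while Gata6, Sox17 and Foxa2 differed by 0.03, -0.01 and 0.03. Of 12 neural genes the 3 that rose were Ncam1, the tubulin gene Tubb3 and the intermediate filament gene Nes, at 0.97, 0.61 and 0.45, while the lineage factors Sox1 and Pax6 differed by -0.09 and 0.03. Of 11 trophoblast genes Krt8, a keratin, rose by 0.75 (adjusted p = 2.93e-06) and Tfap2c, a factor shared by trophoblast, germ cells and naive ES cells, by 0.5 (adjusted p = 0.000705), while Cdx2, Gata3 and Elf5 differed by -0.12, -0.02 and 0. Gata4 and Tfap2c were the transcription factors among the genes of these lists that rose, and the others encode matrix, cytoskeletal and adhesion proteins.

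Of the glycolysis, cholesterol and p53 lists, 23.1%, 20% and 16.7% passed, against 9.46% of all genes. Of 13 glycolysis genes, Slc2a3 and Tpi1 rose by 0.19 and 0.13 (adjusted p = 0.0195 and 0.0187), and Pdk1, a kinase that holds pyruvate back from the mitochondrion, fell by 0.32 (adjusted p = 5.38e-05). Of 15 cholesterol genes, 2 rose and 1 fell, none by more than 0.17. Of 20 ribosome biogenesis genes 5% passed, below the 9.46% of all genes: Rrs1 fell by 0.32 (adjusted p = 0.00212) and the other 19 did not pass. Pmaip1, which encodes the apoptosis promoter NOXA and stands on the p53 and apoptosis lists, read 9.17, 9.13 and 9.02 in 2i and 9.93, 9.93 and 9.89 in CHIR, 1.75-fold lower (adjusted p = 9.33e-06). It was the largest change of either list, and Mdm2, a direct p53 target, differed by -0.03 (adjusted p = 0.726). Of 14 LIF and STAT3 targets 14.3% passed, against 9.46% of all genes: Tfcp2l1 rose and Gbx2 fell. Socs3, the feedback inhibitor of that pathway, had a difference of -0.21 (adjusted p = 0.118).

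**Figure D3:**
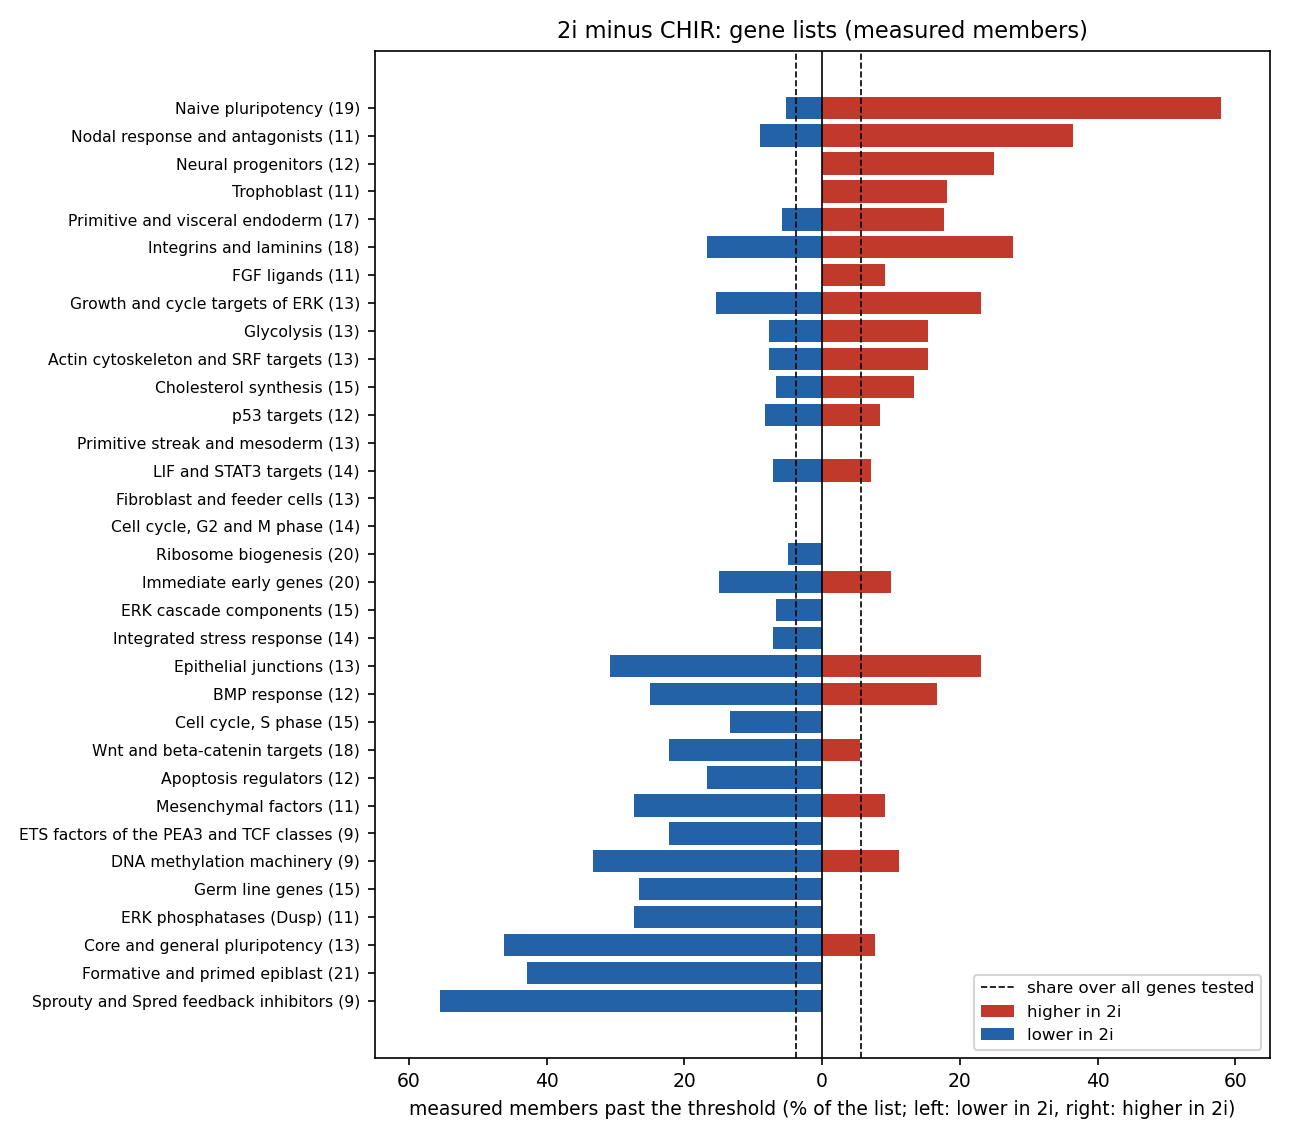
Share of the measured members of each gene list (number in brackets) that was higher (red, to the right) or lower (blue, to the left) in 2i than in CHIR at an adjusted p of 0.05; dashed lines give the shares over all genes, 5.7% higher and 3.76% lower. The naive pluripotency list reaches farthest to the right (11 of 19) and the Sprouty and Spred list farthest to the left (5 of 9); some genes stand on several lists.

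The arrays also carried probe sets for miRNA genes. These read the precursor or its host transcript in total RNA, not the mature miRNA. Of 291 such genes, 18 passed (6.19%), 7 higher and 11 lower, against 9.46% of all genes. Clusters are runs of miRNA genes less than 10000 bases apart on 1 strand. Of the 291 genes, 249 had a single position in RefSeq, and 35 clusters held at least 2 of them. The clusters described were picked after their values were seen, and 4 had at least 2 members past the threshold. In the longest, at chr12:109709060-109743496 on the plus strand, 2 of 29 measured members passed, against 9.46% of all genes. They were Mir300 and Mir539, which fell by 0.49 and 0.24 (adjusted p = 0.00509 and 0.0453). Of the 29 differences 24 were below 0, but all except those of Mir300 and Mir539 did not pass, so no direction is given for the others. The other 3 are described in full. Mature sequences are shown because members of a cluster are made from one transcript and because several share a seed, bases 2 to 8 of the mature miRNA, which sets the targets. Sequences are from RefSeq (GRCm38.p6), 5′ to 3′, with the seed in capitals.

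The Mir106a to Mir363 cluster lies at chrX:52741693-52742567 on the minus strand and is a relative of the growth-promoting miR-17 to miR-92 cluster. All 5 members had their 2i mean below their CHIR mean, and 4 of them passed, against 3.76% of all genes called lower. One arm per gene is shown, and the opposite arms are not. The arms shown fall into 3 seed groups, of which AAAGUGC belongs to the miR-17 family and AUUGCAC to the miR-92 family:
miR-106a-5p: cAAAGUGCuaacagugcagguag
miR-20b-5p: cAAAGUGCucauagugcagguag
miR-19b-3p: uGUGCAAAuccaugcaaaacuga
miR-92a-3p: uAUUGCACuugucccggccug
miR-363-3p: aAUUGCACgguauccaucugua

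Mir363 had the largest difference of the cluster. Mir363 read 8.19, 8.27 and 8.29 in 2i and 8.96, 8.88 and 8.94 in CHIR (log2 -0.68 ± 0.11, adjusted p = 0.000854). Mir106a read 6.24, 6.38 and 6.33 in 2i and 6.54, 6.75 and 6.92 in CHIR (log2 -0.42 ± 0.1, adjusted p = 0.012). No 2i array of either gene reached a CHIR array. Mir19b-2 and Mir20b fell by 0.47 and 0.36 (adjusted p = 0.00786 and 0.0219), and Mir92-2 had a difference of -0.16 (adjusted p = 0.0961). The calls of Mir20b and Mir106a were lost under some settings.

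The Mir302 to Mir367 cluster, specific to pluripotent cells and higher in primed than in naive ones, lies at chr3:127545228-127545807 on the plus strand. Here 3 of 5 members passed, against 3.76% of all genes called lower, and all 5 had their 2i mean below their CHIR mean. The 3p arms shown here carry the seed AAGUGCU in miR-302b and miR-302d, AGUGCUU in miR-302c, and in miR-367 the AUUGCAC shown above for miR-363 and miR-92a; the 5p arms and Mir302a are not shown:
miR-302b-3p: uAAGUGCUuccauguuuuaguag
miR-302c-3p: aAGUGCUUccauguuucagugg
miR-302d-3p: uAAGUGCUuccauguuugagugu
miR-367-3p: aAUUGCACuuuagcaaugguga

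Mir302c read 5.53, 5.6 and 5.83 in 2i and 6.13, 6.32 and 6.51 in CHIR (log2 -0.66 ± 0.14, adjusted p = 0.00561). Mir302a read 5.67, 5.64 and 5.82 in 2i and 5.87, 6.41 and 6.38 in CHIR (log2 -0.51 ± 0.15, adjusted p = 0.0391). Mir367 fell by 0.23 (adjusted p = 0.0151). Mir302b and Mir302d had differences of -0.49 and -0.37 (adjusted p = 0.132 and 0.104), although neither overlapped between the groups. All levels of this cluster lie near the olfactory receptor range, and the calls of Mir302a and Mir367 were lost under some settings. The highest mean of each of the 5 genes was that of the CHIR group.

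The Mir200a and Mir200b pair at chr4:156054896-156055750 on the minus strand, whose miRNAs repress the mesenchymal factors Zeb1 and Zeb2, was higher in 2i. Their seeds, AACACUG and AAUACUG, are not the same:
miR-200a-3p: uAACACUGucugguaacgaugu
miR-200b-3p: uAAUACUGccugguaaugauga

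Mir200b read 6.24, 6.47 and 6.28 in 2i and 6.01, 6.01 and 6.06 in CHIR (log2 0.3 ± 0.06, adjusted p = 0.00322). Mir200a rose by 0.15 (adjusted p = 0.0366), a call that most other settings did not keep. Of the targets named, Zeb2 fell by 0.16 (adjusted p = 0.028) from a CHIR mean of 5.92, in the olfactory receptor range, and Zeb1 differed by -0.11 (adjusted p = 0.253).

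**Figure D4:**
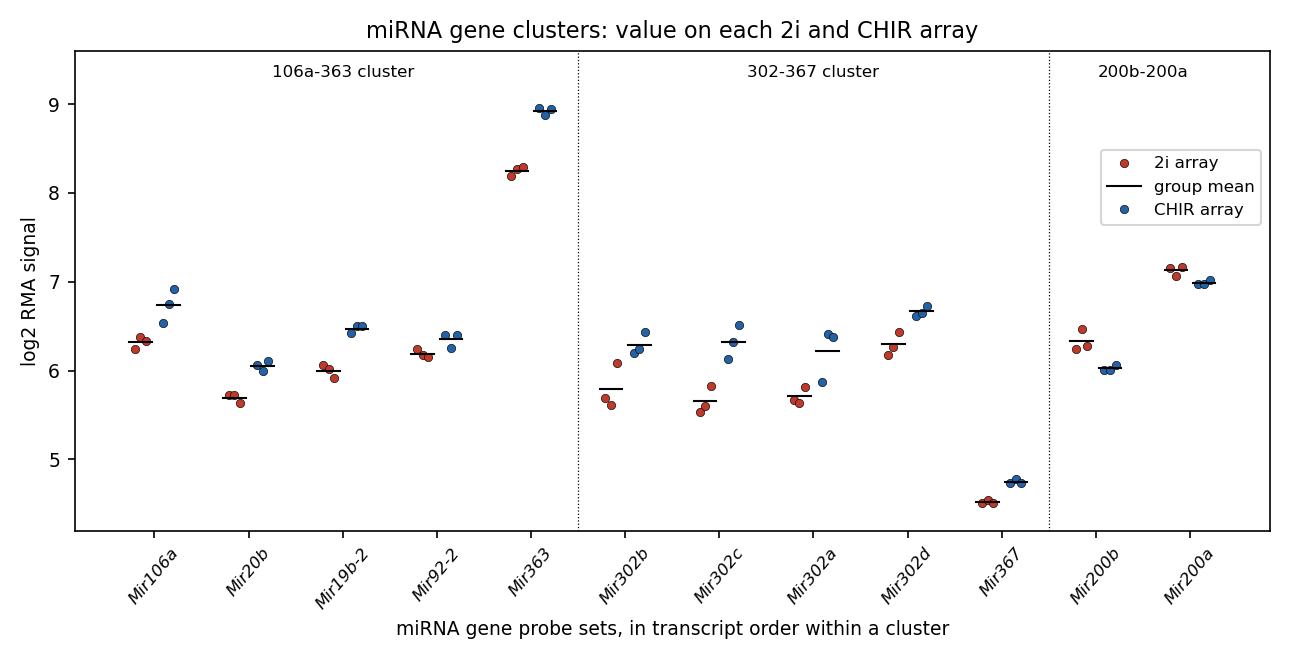
Log2 RMA signal of 12 miRNA genes in 3 clusters on each 2i array (red dots) and CHIR array (blue dots), with the group means (lines); the axis does not start at 0. Mir363 falls from 8.93 to 8.25, every member of the first and second cluster has its 2i mean below its CHIR mean, and Mir200b and Mir200a have theirs above.

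The effect of PD0325901 in the absence of CHIR99021 was set beside these values. That comparison, PD03 minus DMSO, uses 6 other arrays. There 3354 genes passed (16.8%), 1729 higher (8.67%) and 1625 lower (8.15%). Of the 1887 genes called with CHIR99021, 1361 (72.1%) were also called in the same direction without it, and these are 40.6% of the calls without it. Differences correlated with a Pearson r of 0.73 across the 19937 genes, which are not independent replicates, and 969 of the 1361 shared genes had the smaller difference when CHIR99021 was present. A test of the difference between the effects passed for 406 genes (2.04%), with values above 0 in 186 (0.933%) and below 0 in 220 (1.1%), and 217 of them are among the 1887. In 287 of the 406 the effects had the same sign and the one with CHIR99021 was smaller, in 28 it was larger, and in 91 the signs were opposite. Without PD03 replicate 1 the count was 269, and without PD03 replicate 3 it was 255.

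**Figure D5:**
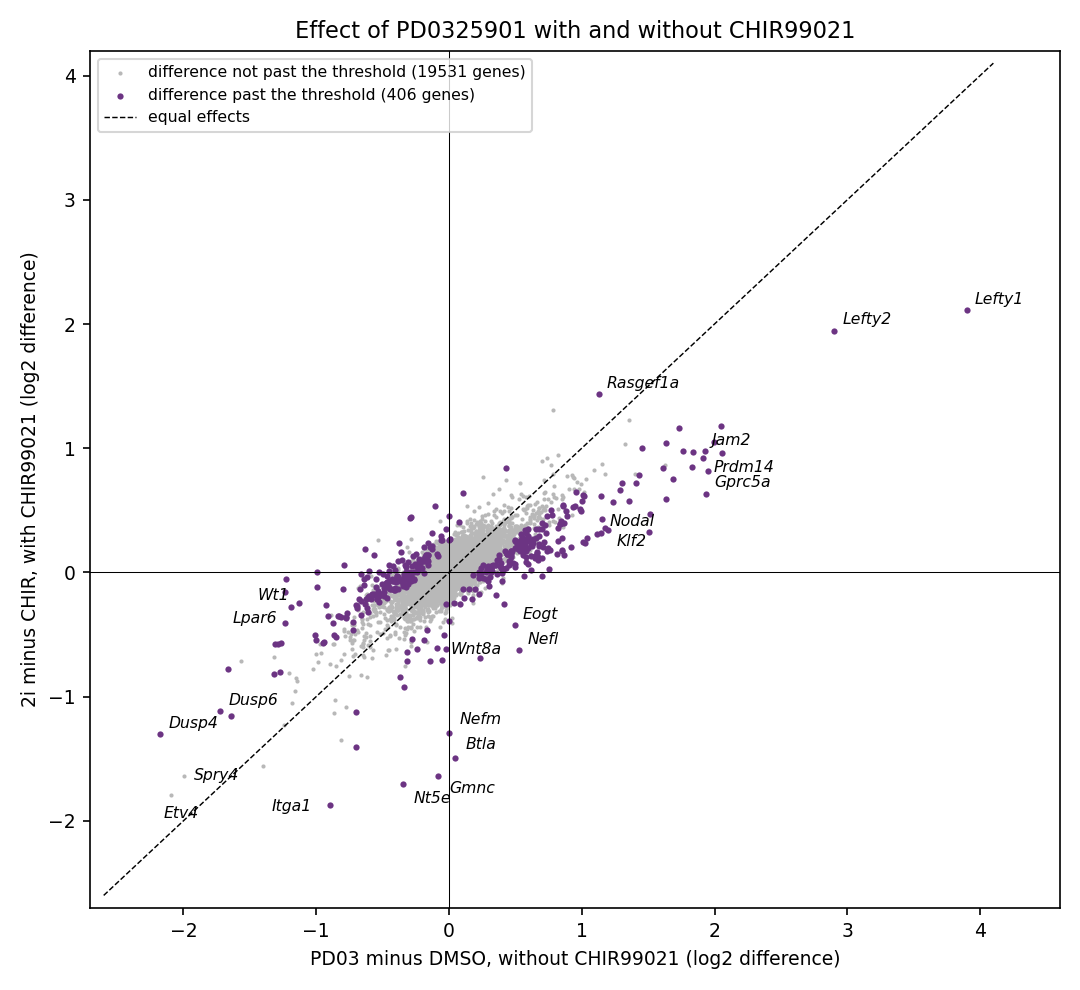
Effect of PD0325901 with CHIR99021 (vertical axis, 2i minus CHIR) against that without it (horizontal axis, PD03 minus DMSO) as log2 differences for 19937 genes; purple genes are the 406 whose effects differed at an adjusted p of 0.05, and the dashed line marks equal effects. Lefty1 lies at 2.11 with and 3.9 without CHIR99021, Etv4 and Spry4 lie near the line, and Gmnc, Btla and Nefm lie at -1.64, -1.49 and -1.29 on the vertical axis with values near 0 on the horizontal one.

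Of the Dusp genes the difference between effects passed for 5 of 11, against 2.04% of all genes. Among the 9 Sprouty and Spred genes the lowest adjusted p from limma was 0.115, that of Spred3. Dusp1 and Dusp9 differed by -0.04 and -0.07 with CHIR99021 and fell by 0.39 and 0.37 without it (difference between effects 0.35 and 0.3, adjusted p = 0.0223 and 0.0362). Dusp4 differed by -1.3 with and -2.18 without CHIR99021, and Dusp6 by -1.12 and -1.72, and both differences between effects passed (0.87 ± 0.08 and 0.6 ± 0.08, adjusted p = 3.66e-05 and 0.000583). For Dusp4 and Dusp6 the groups with PD0325901 had nearly the same means (7.14 and 7.11; 9.29 and 9.34), while CHIR was lower than DMSO (8.44 against 9.28; 10.41 against 11.06). Etv4 and Spry4 differed by -1.79 and -1.64 with and by -2.09 and -2 without, and their differences of 0.3 and 0.36 did not pass (adjusted p = 0.245 and 0.235).

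The difference between effects passed for 6 of 19 naive and 4 of 11 Nodal genes, against 2.04% of all genes. Lefty1 rose from 6.41 in DMSO to 10.31 in PD03, against 8.36 to 10.47 from CHIR to 2i, a difference between effects of -1.79 ± 0.18 (adjusted p = 5.61e-05). Prdm14 differed by 0.92 with and 1.91 without, Klf2 by 0.34 and 1.2, Nodal by 0.32 and 1.15, and Nanog by 0.25 and 0.82. For Prdm14, Klf2, Nodal and Nanog the difference between effects was -0.99, -0.85, -0.82 and -0.57 (adjusted p = 1.78e-06, 8.46e-07, 1.73e-06 and 0.000109). Among the naive genes that did not pass were Tbx3 and Tfcp2l1 (each -0.21, adjusted p = 0.46 and 0.219) and Klf4 (-0.46, adjusted p = 0.0889). For Lefty1, Prdm14, Klf2, Nodal and Nanog the CHIR mean was above the DMSO mean, for example 9.69 against 8.73 for Klf2 and 12.44 against 11.74 for Nanog.

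For Gmnc, Btla, Nefm and Nt5e the fall was seen with CHIR99021 and was small or not called without it. Gmnc had means of 5.36 in PD03 and 5.44 in DMSO (adjusted p = 0.571), so that the difference between effects was -1.56 ± 0.11 (adjusted p = 1.73e-06). Btla and Nefm gave -1.54 and -1.29 (adjusted p = 1.73e-06 and 2.98e-06), and their PD03 and DMSO means were below 6, as were those of Gmnc, in the olfactory receptor range. Nt5e fell by 0.35 without CHIR99021 (adjusted p = 0.00474), and the difference between effects was -1.36 (adjusted p = 3.85e-06). Itga1 fell by 0.9 without it, from 6.54 to 5.65, and differed between the settings by -0.98 (adjusted p = 0.000805).

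The converse pattern, a fall without CHIR99021 that was not called or was small with it, was found for Wt1, Il10, Lpar6 and Gpm6a. With CHIR99021 the means of Il10 (5.02 in 2i, 5.18 in CHIR) and Gpm6a (6.06 and 6.3) were within or at the edge of the olfactory receptor range. Wt1, a zinc finger factor, read 7.01, 6.71 and 6.88 in 2i and 7.06, 6.81 and 6.9 in CHIR, with overlap, and fell by 1.22 from a DMSO mean of 8.01 without CHIR99021 (difference between effects 1.17, adjusted p = 0.000586). Lpar6, a lysophosphatidic acid receptor, fell by 0.27 with and 1.19 without (0.92, adjusted p = 6.23e-05). Fgf5 differed by -0.41 with and fell by 1.23 without (0.82, adjusted p = 0.0407), a difference between effects that 12 of 19 alternative settings did not keep.

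Called with opposite signs in the 2 comparisons were 10 genes, each also past the test of the difference; they were chosen by that property. Nefl, another neurofilament chain, read 10.58, 10.64 and 10.75 in 2i and 11.29, 11.28 and 11.29 in CHIR, and rose by 0.53 without CHIR99021 (difference between effects -1.16, adjusted p = 2.27e-06). Eogt, an O-GlcNAc transferase of the secretory pathway, read 9.29, 9.4 and 9.33 in 2i and 9.81, 9.72 and 9.76 in CHIR, and rose by 0.5 without it (-0.92, adjusted p = 7.82e-06). The same signs were found for Nrp2, a co-receptor of semaphorins and VEGF, Gad1, which makes GABA, and Tfap2a. Dcxr, Pdxk, Plpp3, Tm4sf5 and Zdhhc23 were higher in 2i and lower in PD03.

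Promoters of the called genes were read for 3 short motifs in the 250 bases before each RefSeq start, on both strands: CCGGAAG for ETS factors, TGANTCA for AP-1 and CTTTGAT for TCF and LEF factors. The ETS letters stood in 6.71% of the promoters of higher genes, 8.9% of those of lower genes and 9.41% of all 19115 promoters of measured genes. AP-1 letters stood in 6.21%, 2.97% and 6.03%, and TCF and LEF letters in 1.82%, 1.94% and 2.83%. None of the motifs was held by a larger share of lower promoters than of all promoters, and these shares were not tested.

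Of the 15 highest and 15 lowest genes named by the rule, 19 had promoters that were counted, and 5 of them held a motif. Promoters on a chromosome left out of the printed windows were not counted. A gene outside the 19 may thus still have a promoter in the table. The windows are shown so that the letters can be seen in place, with the motif in capitals, on the strand of the gene in GRCm38.p6. The AP-1 windows belong to Mme (chr3:63295850-63295916) and Anxa2 (chr9:69453558-69453624), both higher, and to Gja1 (chr10:56377251-56377299), which was lower. The TCF and LEF windows, with the motif on the opposite strand, belong to Gmnc (chr16:26991791-26991857, a gene of the minus strand) and Pim2 (chrX:7878211-7878277), both lower. A match is a run of letters and not a binding site shown by these data:
Mme: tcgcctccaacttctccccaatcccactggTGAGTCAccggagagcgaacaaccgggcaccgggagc
Anxa2: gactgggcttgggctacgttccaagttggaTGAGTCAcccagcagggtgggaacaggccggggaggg
Gja1: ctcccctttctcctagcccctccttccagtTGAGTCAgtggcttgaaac
Gmnc: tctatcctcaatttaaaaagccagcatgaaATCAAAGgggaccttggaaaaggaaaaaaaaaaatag
Pim2: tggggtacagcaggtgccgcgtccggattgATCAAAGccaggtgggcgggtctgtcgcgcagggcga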

How the data were processed

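The authors deposited log2 values per probe set for 15 arrays, summarised with RMA (version not given in the sources used here) per the submitters' processing notes. RMA makes the distributions of the arrays nearly equal, which hides any shift common to most genes, and it compresses folds of weak genes. Of 34760 probe sets, 21640 had exactly 1 gene symbol in the platform annotation, and for each of 19937 genes the brightest set on average was used. No filter on level was applied.

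All arrays entered a limma 3.58.1 model of 5 group means (lmFit, eBayes; R 4.3.3). Adjusted p-values are two-sided, Benjamini-Hochberg over all 19937 genes, with a threshold of 0.05; the median standard error was 0.0509, limited by 3 arrays per group. The procedure was tested on simulated data.

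The members and the 34 gene lists (501 entries, 459 measured) were chosen with earlier results of these data known, and no list was tested as a set. Named were the 15 highest and 15 lowest called genes without overlap between arrays, up to 4 called members of a list, a short fixed set, and the 6 highest and lowest of the difference between effects, leaving out predicted genes; other list members named were chosen after their values were seen. The text leaves out some. Alternatives are those of the closing section.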

Additional observations from a re-analysis of the deposited data

Results flagged for a closer look

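The effect of PD0325901 differed with and without CHIR99021 in 406 genes by the limma test of that difference, (2i minus CHIR) minus (PD03 minus DMSO). The values below are that difference on the log2 scale.

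Among genes that were higher with PD0325901 in both settings, the value was below 0, a smaller rise with CHIR99021, for Lefty1 (-1.79), Gprc5a (-1.3), Mme (-1.09), Prdm14 (-0.99), Lefty2, Jam2 and Slco4c1 (each -0.95), Ncam1 (-0.87), Anxa2 (-0.86), Klf2 (-0.85), Nodal (-0.82), Dsp (-0.79), Calcoco2 (-0.59), Myof and Nanog (each -0.57) and Mras (-0.46). Rasgef1a was the 1 such gene named with a value above 0 (0.31). The second probe set of Mras had means of 6.76 in 2i, 6.25 in CHIR, 6.73 in PD03 and 6.23 in DMSO, nearly the same rise in both settings.

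A larger fall with CHIR99021 was found for Nt5e (-1.36), Itga1 (-0.98), Epha1 (-0.71), Lef1 (-0.42) and Dnmt3l (-0.36), and a fall seen with CHIR99021 and not called without it for Gmnc (-1.56), Btla (-1.54) and Nefm (-1.29). A smaller fall with CHIR99021 was found for Gja1 (0.48), Dusp6 (0.6), Dusp4 (0.87), Sema6a (0.89) and Lpar6 (0.92). For Fgf5 (0.82), Gpm6a (0.89), Il10 (1.08) and Wt1 (1.17) the fall was called without CHIR99021 and not with it.

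Outside the genes tested, 233 of the 13120 probe sets without exactly 1 gene symbol passed the threshold in 2i minus CHIR (1.78%), 134 higher and 99 lower; they are not named here.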

How the results depend on the processing

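The number of genes called in 2i minus CHIR was 1887 and lay between 1648 and 2145 over the fits on the 6 arrays alone, with probe sets averaged, with a filter at 6, with limma-trend, with centred arrays and with quantile normalization repeated, and between 1387 and 1529 with 1 replicate left out; the count past 2-fold, 30, lay between 27 and 35. The count of genes whose effect differed with CHIR99021 was 406. It lay between 323 (centred arrays) and 508 (limma-trend) over the same kinds of fit, and between 255 and 437 when a replicate was left out. The replicate numbers were not used to pair the arrays in the main fit. Same-numbered 2i and CHIR arrays correlated at 0.06, 0.23 and 0.11 in their deviations, and differently numbered ones between -0.19 and 0.11. Weak pairing thus cannot be told from none. With the replicate block 1780 genes were called in 2i minus CHIR, 3229 in PD03 minus DMSO and 352 for the difference between effects. One direction turned: with the probe sets of Etv5 averaged, its difference was -0.33 (adjusted p = 5.79e-05), against 0.07 for the set used; its sets disagree. Of 150 named genes checked, 136 were called, 97 of them under every setting. The 39 that missed the threshold under at least 1 were Mir200a, Insig1, Lama5, Pecam1, Acvr2b, Spry1, Tjp1, Klf10, Plaur, Id1, Idi1, Ccne2, Gata4, Spred3, Zeb2, Mir302a, Tagln2, Tpi1, Dppa4, Lif, Slc2a3, Itgb4, Tpm2, Ccne1, Mir367, Braf, Dusp5, Mir20b, Mmp14, Ddx4, Lpar6, Dhcr7, Sp5, Mir106a, Lin28b, Stk31, Bmp4, Ddit4 and Itgb5. Of 43 differences between effects that were checked, 34 were called under every setting. The other 9 were Rasgef1a, Mras, Gja1, Tnfrsf19, Dnmt3l, Itga5, Mmp2, Fgf5 and Sema6a. Not checked under other settings were the differences between effects of Dusp1, Dusp9 and the genes called with opposite signs. The calls of Mir300 and Mir539 were not checked either.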
